A study of Rattus norvegicus with 12 samples.

Results

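MicroRNA was measured on 6 arrays of RNA from cultured rat Sertoli cells, 3 labelled as untreated controls and 3 labelled as treated with 0.1 mM MBP. They were selected by their labels, and they are 6 of the 12 arrays of the study, the others being gene arrays of the same design. Both groups came from 9-day-old rats. The testis cells had been kept 24 h in medium with fetal bovine serum before the groups were split, and RNA was taken after another 24 h with or without MBP. The labels do not spell out the abbreviation MBP and name no strain, and the study's design text calls the controls solvent treated where the sample labels say only that they lack MBP. Samples of each group carried the numbers 1 to 3, and a control and an MBP sample of the same number were treated as a pair. No source states whether a number stands for an animal, an isolation or a dish, and the p-values below refer only to the scatter among these arrays, part of which may be technical.

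The microRNA array held 728 probe sets for mature microRNAs and 490 for stem-loops, the hairpin precursors, covering 449 stem-loop accessions. Mature probe sets were the main readout. They carry accession identifiers with no names in the files used here, so they are mostly described by level and count, and the named microRNAs are stem-loops. Names were found for 318 of the 449 stem-loop accessions in the annotation text of the gene array.

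A microRNA gene is transcribed as a long primary transcript. Drosha and Dgcr8 cut the hairpin out in the nucleus, Xpo5 exports it, Dicer1 removes the loop, and one strand is loaded into an Argonaute protein, where it guides silencing of messenger RNAs. Target choice rests mainly on the seed, bases 2 to 8 of the mature strand. Sertoli cells are the somatic nurse cells of the seminiferous tubule, and in mice loss of Dicer1 in these cells is known to cause infertility.

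The sequences of the named microRNAs to which the results refer are shown first, from RefSeq on assembly GRCr8, with the seed in capitals. A hairpin sequence was matched for 283 of the 449 stem-loop accessions. The miR-351 stem-loop had the highest signal of all stem-loop probe sets, and its 5p arm shares the seed CCCUGAG with miR-125a. The miR-361 stem-loop was also among the brightest. Those of miR-344a-2, let-7c-2 and miR-494 had unadjusted p-values below 0.05.
rno-miR-351-5p: uCCCUGAGgagcccuuugagccuga
rno-miR-125a-5p: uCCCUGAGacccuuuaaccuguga
rno-miR-361-5p: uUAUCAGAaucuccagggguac
rno-miR-344a-5p: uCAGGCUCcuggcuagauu
rno-let-7c-5p: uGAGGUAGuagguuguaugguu
rno-miR-494-3p: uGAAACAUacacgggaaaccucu

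In the hairpins of the brightest pair, printed next in the same build with both mature arms in capitals, the arms face each other across the loop. The miR-351 hairpin lies at chrX:137725116-137725196 on the minus strand and that of miR-361 at chrX:82438463-82438532 on the minus strand, inside the gene Chm by the annotation.
miR-351: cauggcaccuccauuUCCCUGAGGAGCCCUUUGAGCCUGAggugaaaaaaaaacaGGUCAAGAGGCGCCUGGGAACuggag
miR-361: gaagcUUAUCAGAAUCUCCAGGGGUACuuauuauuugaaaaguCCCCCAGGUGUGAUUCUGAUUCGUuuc

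Signal levels were alike on all 6 microRNA arrays. Mature probe sets had medians between 1.01 and 1.18 on the log2 scale, with 141 to 154 per array exceeding log2 6. Stem-loop medians ranged from 0.57 to 0.63, and 4 or 5 stem-loop probe sets per array exceeded 6. Of the mature probe sets, 129 were above log2 6 on all 6 arrays, and these are called the bright mature probe sets. The number of arrays limits the precision. On the gene arrays, the Sertoli cell markers Wt1, Gata4, Clu and Fshr, 4 of the 9 measured, exceeded background in every sample. For Fshr this rests on a probe set that is also annotated with GAPDH transcripts, and its other probe set, with a mean of 2.60, was below background. Sox9 did so on 5 arrays. Amh, Inha, Dhh and Cldn11 were at background on every array, as were all 3 measured germ cell, all 4 macrophage and both endothelial cell markers. All 7 measured markers of peritubular myoid cells and fibroblasts were above background on all 6 arrays. Of 5 Leydig cell markers, Star was above background on all 6 arrays, and Cyp11a1, Cyp17a1, Insl3 and Lhcgr were at background on every array.

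Between MBP and control, no microRNA probe set passed the test. Limma with the sample number as a block called 0 of 1218 mature and stem-loop probe sets at an adjusted p of 0.05 (0%), and the smallest adjusted p was 0.495. At an unadjusted p below 0.05 it called 58 (4.76%), of which 28 were higher (2.3%) and 30 lower (2.46%) with MBP. Limma without the block also called 0, with a smallest adjusted p of 0.421 and 46 at an unadjusted p below 0.05. Of the mature probe sets, 43 had an unadjusted p below 0.05 (5.91%), 23 higher (3.16%) and 20 lower (2.75%). Of the stem-loops, 15 did (3.06%), 5 higher (1.02%) and 10 lower (2.04%). Among the 129 bright mature probe sets it was 1 (0.775%), in the fit of all 1218 probe sets. A difference between group means of 2-fold or more was seen for 6 probe sets (0.493%), 5 mature and 1 stem-loop, and none of the 6 was among the bright mature probe sets.

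**Figure D1:**
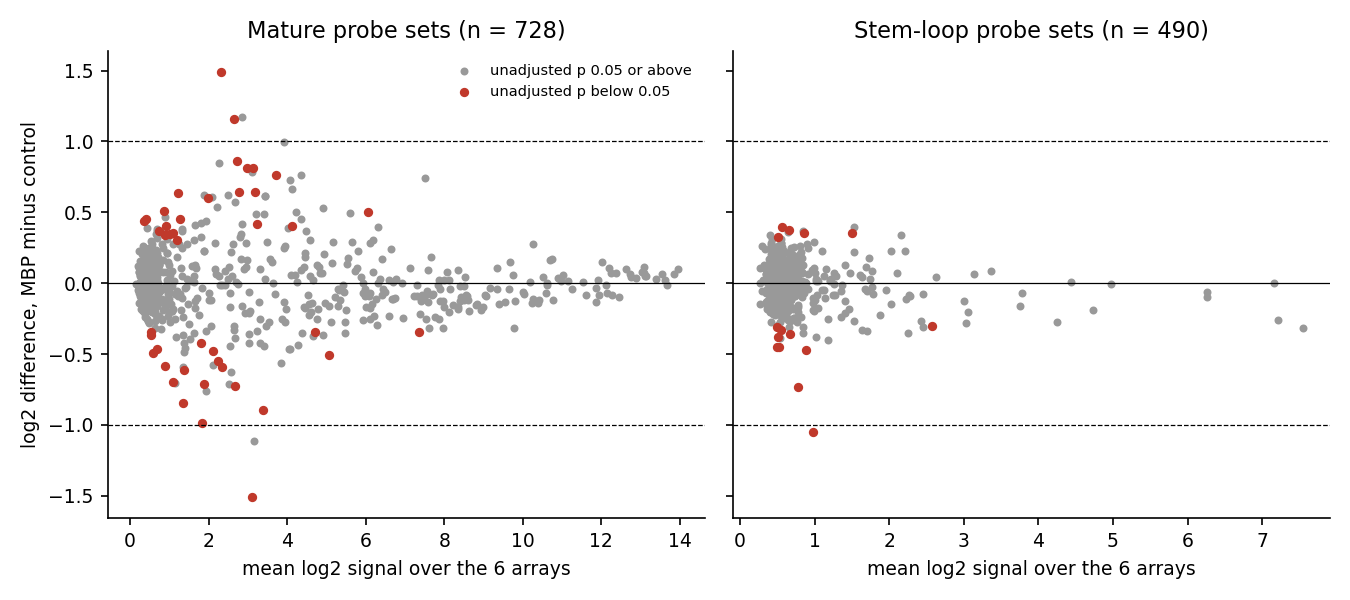
Log2 difference, MBP minus control, against the mean log2 signal over the 6 arrays for 728 mature (left) and 490 stem-loop probe sets (right). Each point is 1 probe set, red points have an unadjusted p below 0.05, and dashed lines mark a 2-fold change. The 43 red mature points lie mostly at low signal, and no point passed adjustment.

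How large a change could have gone unseen was read from the 95% intervals of the same fit. For 128 of the 129 bright mature probe sets (99.2%) a 2-fold change in either direction lay outside the interval. Over all 1218 probe sets this held for 91.7%, over all mature ones for 86.5%, and over the stem-loops, most of which were dim on all arrays, for 99.4%. A narrow interval on a dim probe set bounds its log2 signal and not the abundance of the microRNA. The exception among the bright mature probe sets was MIMAT0017029, described below.

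Precision varied with level. For the 49 mature probe sets with a mean above log2 10, the median half-width of the interval was 0.29, a factor of 1.23. Between log2 8 and 10 (n = 36) it was 0.31, and between 6 and 8 (n = 58) 0.33. It was widest between 2 and 4 (n = 91), at 0.73 or a factor of 1.66. That band and the one from 1 to 2 (n = 75) held 15 and 12 of the 43 mature probe sets with an unadjusted p below 0.05, a share of 16.5% and 16%. In the bands from 8 to 10 and above 10 the count was 0.

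The bright mature probe sets shifted little. Their mean was lower with MBP for 79 and higher for 50, with a median difference of -0.04 on the log2 scale, against -0.01 over all 1218 probe sets. The median by pair was -0.08 for number 1, 0.03 for number 2 and -0.10 for number 3, so the pairs did not share a direction. After quantile normalization 67 of the 129 were lower and the median was -0.01. All 3 pairs moved the same way for 34 of the 129 (26.4%), 28 downward (21.7%) and 6 upward (4.65%), compared with 316 of 1218 over all probe sets (25.9%), 166 downward (13.6%) and 150 upward (12.3%). The groups did not overlap for 9 of them (6.98%), 3 higher (2.33%) and 6 lower (4.65%). Over all probe sets 94 did not overlap (7.72%).

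At the top of the range the arrays were closest. The 15 mature probe sets of highest mean, at log2 12.6 to 14.0, differed between groups by at most 0.11 on the log2 scale. Of these, 14 were higher with MBP and 1 lower, with adjusted p-values of 0.919 to 0.989. The brightest of them read 13.92, 13.91 and 13.90 in controls 1 to 3 and 13.91, 14.04 and 14.08 with MBP, a difference of 0.10 (95% interval -0.19 to 0.39).

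The mature probe set of smallest p was dim. MIMAT0017904 had log2 signals of 2.07, 1.44 and 1.23 in controls 1, 2 and 3, and of 2.93, 3.31 and 2.97 in MBP samples 1, 2 and 3. Every MBP array lay above every control array, as the groups were separate in either direction for 47 of the 728 mature probe sets (6.46%). The means were 1.58 ± 0.44 (SD, n = 3) and 3.07 ± 0.21 (SD, n = 3), a difference of 1.49 (95% interval 0.90 to 2.08, adjusted p = 0.495 by limma). It passed, with an adjusted p of 0.0379, only in the fit without the block and without control replicate 1. The lowest p in the other direction was that of MIMAT0025057, with 2.38, 1.66 and 2.92 in the controls and 1.11, 1.08 and 1.82 with MBP. Each pair fell, as all pairs of 170 mature probe sets moved one way (23.4%), but control 2 lay below MBP sample 3, so the groups overlapped. The difference was -0.98 (95% interval -1.42 to -0.54, adjusted p = 0.495 by limma).

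Among bright mature probe sets, MIMAT0000566 was the only one with an unadjusted p below 0.05 in the fit of all 1218 probe sets. Its signals were 7.50, 7.58 and 7.51 in the controls and 7.22, 7.32 and 7.03 with MBP. The MBP arrays were all lower and the groups did not overlap. The difference was -0.34 (95% interval -0.64 to -0.04, unadjusted p = 0.0330, adjusted p = 0.904 by limma), a change of well under 2-fold. After quantile normalization it was -0.23, with an unadjusted p of 0.0632 by limma. MIMAT0017029, described next, then had an unadjusted p of 0.0396 by limma. Limited to the 148 probe sets with a mean above log2 6, limma gave 13 with an unadjusted p below 0.05. In that fit the unadjusted p was 0.00597 for MIMAT0000566 and 0.00824 for MIMAT0017029, and the smallest adjusted p was 0.407.

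MIMAT0017029 had the largest difference of the bright mature probe sets and also the widest interval. It read 7.41, 6.57 and 7.41 in the controls and 7.28, 7.75 and 8.58 with MBP. Pairs 2 and 3 rose by 1.18 and 1.17, pair 1 changed by -0.13, and the groups overlapped. The difference of 0.74 had a 95% interval of -0.02 to 1.51 (adjusted p = 0.904 by limma). It was 1.18 without pair 1 and, in fits without the block, 0.46 without control replicate 2 and 0.39 without MBP replicate 3. None of these 4 mature probe sets has a name in the files used here.

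**Figure D2:**
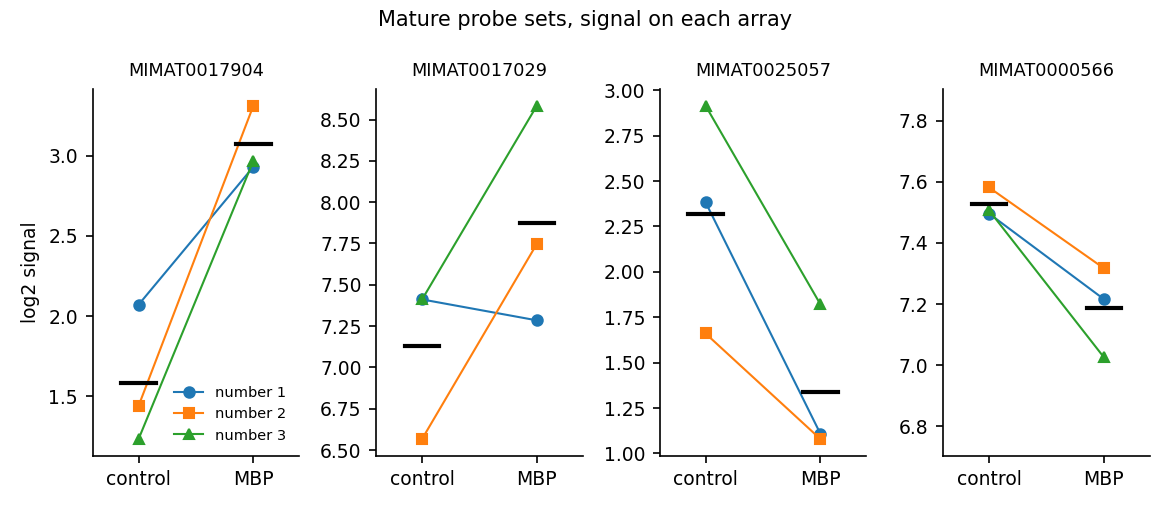
Log2 signal of 4 mature probe sets on each of the 6 arrays, with control and MBP samples of the same number joined by a line and black bars at the group means (n = 3). MIMAT0017904 separated the groups at a low signal, and MIMAT0000566 separated them by 0.34 at a signal above 7. The other pair of probe sets overlapped between groups.

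The remaining mature probe sets of smallest p had a like profile. The 10 of smallest p that were higher with MBP had means from log2 0.40 to 3.18 and differences from 0.41 to 1.49, and 5 of the 10 did not overlap between groups, against 6.46% of all mature probe sets. The 10 of smallest p that were lower had means from 0.59 to 5.07 and differences from -0.48 to -0.98, and 4 of the 10 did not overlap. A choice by smallest p favours such separation, so nothing is read from these counts. Not one of these 20 was above log2 6 on all 6 arrays.

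Stem-loops gave values that can be tied to named microRNAs. That of miR-351, from a cluster on the X chromosome, was the brightest and read 7.65, 7.67 and 7.79 in the controls and 7.52, 7.48 and 7.15 with MBP. All 3 MBP arrays were below all 3 controls, and the groups were separate in either direction for 47 of the 490 stem-loop probe sets (9.59%). The means were 7.70 ± 0.08 (SD, n = 3) and 7.38 ± 0.20 (SD, n = 3), and the difference of -0.32 had a 95% interval of -0.70 to 0.07 (adjusted p = 0.904 by limma). Pair 3 contributed most, at -0.64 against -0.12 and -0.19 in pairs 1 and 2, and without it the difference was -0.16. Quantile normalization gave a difference of -0.21. The other stem-loops within 10 kb of miR-351 were much dimmer. That of miR-322 had a mean of 2.28 and a difference of -0.09, and those of miR-503, miR-450a and miR-542 had means of 0.98, 0.54 and 0.51 with differences of -0.19, -0.22 and 0.11. Levels of different probe sets depend on their probes and are not compared as abundances. The stem-loop of miR-125a, which shares the miR-351 seed shown above, had a difference of 0.01.

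The stem-loop of miR-361 read 7.25, 7.64 and 7.13 in the controls and 7.15, 7.39 and 6.71 with MBP. Every pair fell, as 146 of the 490 stem-loop probe sets moved one way in all pairs (29.8%), but the groups overlapped. The difference was -0.26 (95% interval -0.58 to 0.06, adjusted p = 0.904 by limma). In fits without the block it was -0.41 without MBP replicate 2, -0.11 without control replicate 2 and -0.07 without MBP replicate 3. With quantile normalization it was -0.19. For miR-320, which in mammals is known to be made by Dicer without Drosha, the values were 7.18, 7.13 and 7.16 in the controls and 7.07, 7.29 and 7.11 with MBP. These groups overlapped fully, with a difference of 0.00 (95% interval -0.31 to 0.31).

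One probe set for the stem-loop of miR-125b-1 read 6.25, 6.28 and 6.36 in the controls and 6.34, 6.19 and 6.18 with MBP, a difference of -0.06 (95% interval -0.37 to 0.25). Its name ends in x, a suffix the array's maker gives to sets whose probes may match unrelated sequences. The second probe set of the same stem-loop had a mean of only 1.96, and its difference was -0.05. This was the largest gap, 4.31, among the 37 stem-loop accessions with 2 probe sets. The median gap was 0.04, and in 31 of the 37 both probe sets differed in the same direction.

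The stem-loop of miR-344a-2 had the largest difference of any stem-loop. It read 2.04, 1.43 and 1.04 in the controls and 0.44, 0.65 and 0.28 with MBP. The groups did not overlap, and all 3 pairs fell. The difference was -1.05 (95% interval -1.58 to -0.51, unadjusted p = 0.00394, adjusted p = 0.495 by limma). Its second probe set, whose name ends in x like that of miR-125b-1 above, gave -0.73, also without overlap. The stem-loop of miR-344a-1, whose mature strand has the same seed CAGGCUC, differed by -0.09 at a mean of 0.58.

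The let-7c-2 stem-loop, a precursor of the let-7 family that is known to promote differentiation, read 0.74, 0.71 and 0.77 in the controls and 0.34, 0.35 and 0.19 with MBP. Control and MBP arrays were separate, at a level close to the bottom of the scale. The difference was -0.45 (95% interval -0.75 to -0.15, adjusted p = 0.889 by limma). The second probe set, also with the suffix x, gave -0.45 as well. The 10 stem-loops whose mature strand carries the let-7 seed GAGGUAG were split: 6 were higher and 4 lower, with a median difference of 0.02.

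The miR-494 stem-loop, from the imprinted Dlk1-Dio3 region, had a higher level than the others with an unadjusted p below 0.05. It read 2.72, 2.84 and 2.63 in the controls and 2.41, 2.64 and 2.24 with MBP. All pairs fell by 0.20 to 0.39, while MBP sample 2 overlapped with the lowest control. The difference was -0.30 (95% interval -0.59 to -0.01, adjusted p = 0.904 by limma). Lower with an unadjusted p below 0.05 were also the stem-loops of miR-203b (-0.33), miR-3576 (-0.35), miR-301a (-0.38) and miR-29b-2 (-0.31), whose second probe set gave -0.11. Higher were those of miR-598 (0.40), miR-181d (0.35) and miR-135a (0.35). The second probe set of miR-181d, with the suffix x, gave 0.22, with an unadjusted p of 0.185 in the same limma fit of all probe sets. All 7 had means of log2 1.51 or less, and none passed adjustment.

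**Figure D3:**
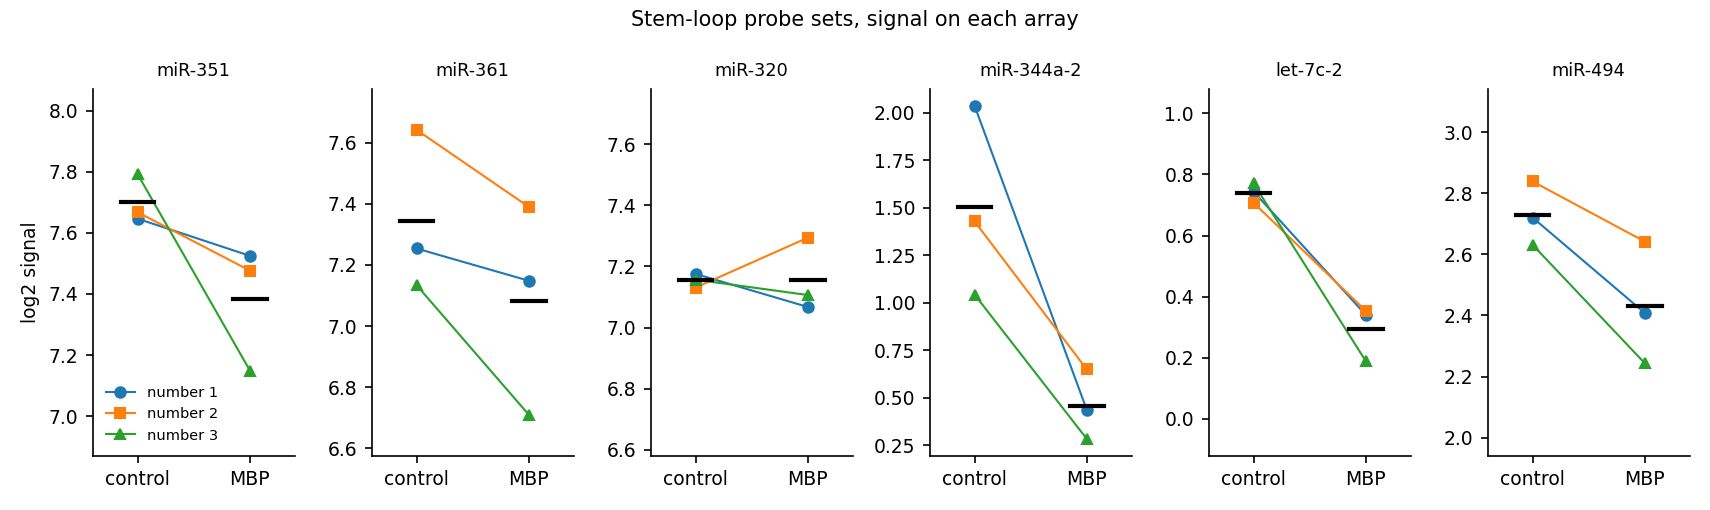
Log2 signal of 6 stem-loop probe sets on each of the 6 arrays, with samples of the same number joined and black bars at the group means (n = 3). MiR-351, miR-361 and miR-320 had signals near 7, and miR-344a-2, let-7c-2 and miR-494 near 3 or below. The groups did not overlap for miR-351, miR-344a-2 and let-7c-2.

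By family and cluster, stem-loops were counted once per accession, using the probe set of higher mean. Over all 449 accessions 214 were higher with MBP and 235 lower, with a median difference of -0.01, and 12 had an unadjusted p below 0.05. Only 30 had a mean above log2 2, and 4 were above 6 on all arrays. Of 21 lists, 14 had a median below 0 and 7 above it, from -0.28 for the endothelial list to 0.13 for the X-linked testis cluster, each of which had only 1 member measured. In 8 of the 21 the medians of all 3 pairs had the same sign. No member of any list passed adjustment.

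The let-7 family had 6 of 11 members higher and 5 lower (median 0.01). The miR-17 to 92 cluster and its paralogs, which promote proliferation, had 6 higher and 8 lower (median -0.02). The group of miR-15, miR-16, miR-195, miR-322, miR-497 and miR-503, a brake on the cell cycle, had 1 higher and 5 lower (median -0.06). The miR-30 family had 3 in each direction (median 0.01), as had the clusters of miR-23, miR-27 and miR-24 (median -0.02). The combined list of miR-26, miR-103, miR-107, miR-148, miR-152, miR-10 and miR-181 had 8 higher and 7 lower (median 0.08, by pair 0.12, 0.00 and 0.06).

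Lists of mesenchyme, matrix and the miR-125 relatives had medians near -0.1, with no member past adjustment. The fibroblast, smooth muscle and mesenchyme list had 3 of 13 higher and 10 lower (median -0.10), with pair medians of -0.07, 0.04 and -0.15. In that list miR-31a had the highest mean, 3.05, with a difference of -0.21. MiR-145, a smooth muscle microRNA, read 2.21, 2.35 and 2.89 in the controls and 2.14, 2.36 and 2.74 with MBP, while miR-143 of the same cluster read 1.81, 1.66 and 2.47, and 1.75, 1.79 and 3.43. In both, sample number 3 was the highest of its group. The miR-29 family, which targets collagen messages, had 1 higher and 3 lower (median -0.11, by pair -0.05, -0.07 and -0.24). The miR-99, miR-100 and miR-125 families had 1 higher and 5 lower (median -0.08, by pair -0.16, -0.08 and -0.12).

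Lists of other tissues were dim, as most lists were. The epithelial list had 1 of 8 higher and 7 lower (median -0.07), the striated muscle list 2 and 4 (median -0.04), the neuron list 7 and 9 (median -0.03) and the leukocyte list 2 in each direction (median -0.04). In the neuron list miR-124-1, miR-124-2 and miR-124-3 read the same on every array. The same signal was thus counted as higher under each of these names. The red cell list had 1 in each direction (median -0.02) and the liver list 4 higher (median 0.05). None of the members of these 6 lists had a mean above log2 2. Over all 21 lists, only 6 held any member above that level. The let-7 family, the miR-29 family and the clusters of miR-23, miR-27 and miR-24 held none either. The gonadal somatic cell list had 4 higher and 2 lower (median 0.06), and the germ cell and early embryo list 5 and 2 (median 0.06). The stress, hypoxia, p53, lipid and cAMP list had 4 in each direction (median -0.04).

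The Dlk1-Dio3 imprinted region was the largest list, with 9 of 30 members higher and 21 lower. Its median difference was -0.03, with pair medians of 0.06, -0.10 and -0.02. MiR-411 read 3.04, 3.54 and 2.92 in the controls and 2.61, 3.07 and 2.98 with MBP, overlapping between groups, with a difference of -0.28 (95% interval -0.67 to 0.11). Of the listed members only miR-494 had an unadjusted p below 0.05. The stem-loop of miR-3576, described above and not on the list, lies in this region but on the strand opposite to miR-494. It lies 20 bases from the member miR-539, which differed by -0.01, and 688 bases from the member miR-487b, which differed by 0.12.

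More probe sets differed between sample numbers than between MBP and control by unadjusted p. In the same fit, the moderated F-test between numbers 1, 2 and 3 gave an unadjusted p below 0.05 for 126 of the 1218 probe sets (10.3%), against 58 for MBP. For mature probe sets it was 115 (15.8%), for the bright ones 22 (17.1%) and for stem-loops 11 (2.24%). At an adjusted p of 0.05 it called 0 (0%), with a smallest adjusted p of 0.0537. Limited to the 148 probe sets with a mean above log2 6 the fit called 36, and limited to 221 with a mean above 4 it called 28. The range between the means of the 3 numbers exceeded the MBP difference for 600 of 728 mature probe sets and for 111 of the 129 bright ones. A range over 3 means tends to exceed a difference between 2 even with no effect, so these counts are descriptive.

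The probe sets with the largest F were selected for a like pattern in both groups, so their values are a description. The mature probe set with the largest F read 3.56, 6.26 and 4.80 in controls 1 to 3 and 2.97, 6.37 and 4.74 in MBP samples 1 to 3. The bright one with the largest F read 7.82, 9.05 and 8.55, and 7.80, 8.98 and 8.34. In both, number 2 was the highest and number 1 the lowest in either group. Of the 10 bright mature probe sets with the largest F, number 2 was highest in 7, number 1 in 2 and number 3 in 1, with ranges from 0.61 to 1.21. Their differences with MBP ran only from -0.22 to 0.03.

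On the gene arrays, too, numbers differed in markers. The log2 signals of the 7 myoid and fibroblast markers summed to 64.4, 64.2 and 70.3 in controls 1, 2 and 3, and to 64.4, 63.2 and 70.0 in the MBP samples. Number 3 had the highest sum in both groups, but not every marker followed it. The number 3 gene arrays also had a higher background, 6.20 in the control and 6.18 with MBP, against 5.67 to 5.88 on the others. They had 6647 and 6661 probe sets above background, against 7568 to 8178. The part of this array difference in the marker signals was not tested. Myh11, smooth muscle myosin, read 7.16, 6.88 and 9.16 in the controls and 7.20, 6.81 and 9.11 with MBP. Tagln, Actg2, Col1a1 and Col1a2 were also highest in number 3. Thy1 was highest in number 1, with 7.84, 7.32 and 7.28 in the controls and 7.72, 7.03 and 7.24 with MBP. Pdgfrb was highest in number 2, with 7.40, 7.80 and 7.69 in the controls and 7.42, 7.67 and 7.61 with MBP. The 9 Sertoli cell markers summed to 53.5, 55.6 and 55.7 in the controls and to 53.9, 55.2 and 56.5 with MBP, so number 3 was the highest in both groups here too, by less. That sum includes markers at background, with only 4 above it on every array, and the Fshr probe set also annotated with GAPDH transcripts. The part of all these markers in the microRNA differences between numbers was not tested, and no label says that the same RNA was used on both kinds of array. In such bulk samples, fewer cells of a type and less RNA per cell cannot be told apart.

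**Figure D4:**
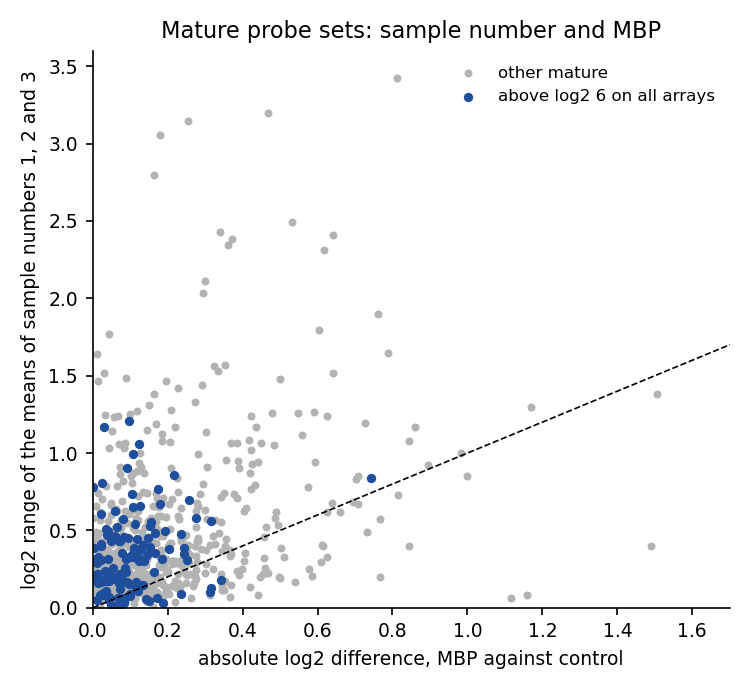
Range of the means of sample numbers 1, 2 and 3 against the absolute difference between MBP and control, both on the log2 scale, for 728 mature probe sets. Blue points are the 129 above log2 6 on all arrays, and the dashed line marks equality. For 111 of the 129 the range between numbers was the larger.

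No gene of the microRNA pathway passed the test. On the gene arrays limma with the sample number as a block called 0 of 27342 probe sets at an adjusted p of 0.05 (0%), with a smallest adjusted p of 0.865, and 1255 at an unadjusted p below 0.05 (4.59%). Of 35 pathway genes 33 were measured, and 22 were above background on all 6 arrays. Of the 33, 10 were higher and 23 lower with MBP, with a median difference of -0.02, and 1 had an unadjusted p below 0.05. Of the 22 above background 17 were lower, while 4352 of all 6341 probe sets above background were lower too. No interval of the 22 reached beyond 0.27 on the log2 scale in either direction.

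Among the nuclear processing genes, Drosha, the enzyme that frees the hairpin, read 7.21, 7.31 and 7.32 in the controls and 7.39, 7.21 and 7.15 with MBP. The groups overlapped, and the difference was -0.03 (95% interval -0.25 to 0.18). Its partner Dgcr8 differed by 0.01, and the helicases Ddx5 and Ddx17 by 0.04 and 0.00. Of the 9 genes in this group 3 were higher and 6 lower. The exportin Xpo5 differed by -0.01 (95% interval -0.15 to 0.14), and Ran, which drives export, by -0.04.

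Dicer1, which removes the loop, read 7.13, 7.11 and 7.23 in the controls and 7.13, 7.01 and 7.28 with MBP, again overlapping. The difference was -0.02 (95% interval -0.16 to 0.12). The Dicer partner Prkra differed by -0.10 (95% interval -0.25 to 0.05). Ago2, the slicing Argonaute, read 8.47, 8.60 and 8.80 in the controls and 8.45, 8.60 and 8.77 with MBP, so that each pair nearly coincided, and the difference was -0.02 (95% interval -0.14 to 0.11). Ago1 differed by -0.07. Ago3 was the gene with an unadjusted p below 0.05, with means of 4.20 ± 0.13 and 3.99 ± 0.13 (SD, n = 3) and an adjusted p of 0.865 by limma. It was below background on all 6 arrays.

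Of the silencing effectors 5 of 8 were higher and 3 lower. Tnrc6a, the scaffold that Argonautes recruit, differed by 0.04 and the deadenylase subunit Cnot1 by 0.06. Of the genes that control let-7, tail microRNAs or turn them over, 1 of 8 was higher and 7 lower. The uridylyl transferase Tut7 differed by -0.03. Zswim8, which directs decay of Argonaute with its microRNA on certain targets, was above background on 4 arrays and differed by -0.05. Lin28a and Lin28b, which block let-7 maturation, were at background on every array.

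**Figure D5:**
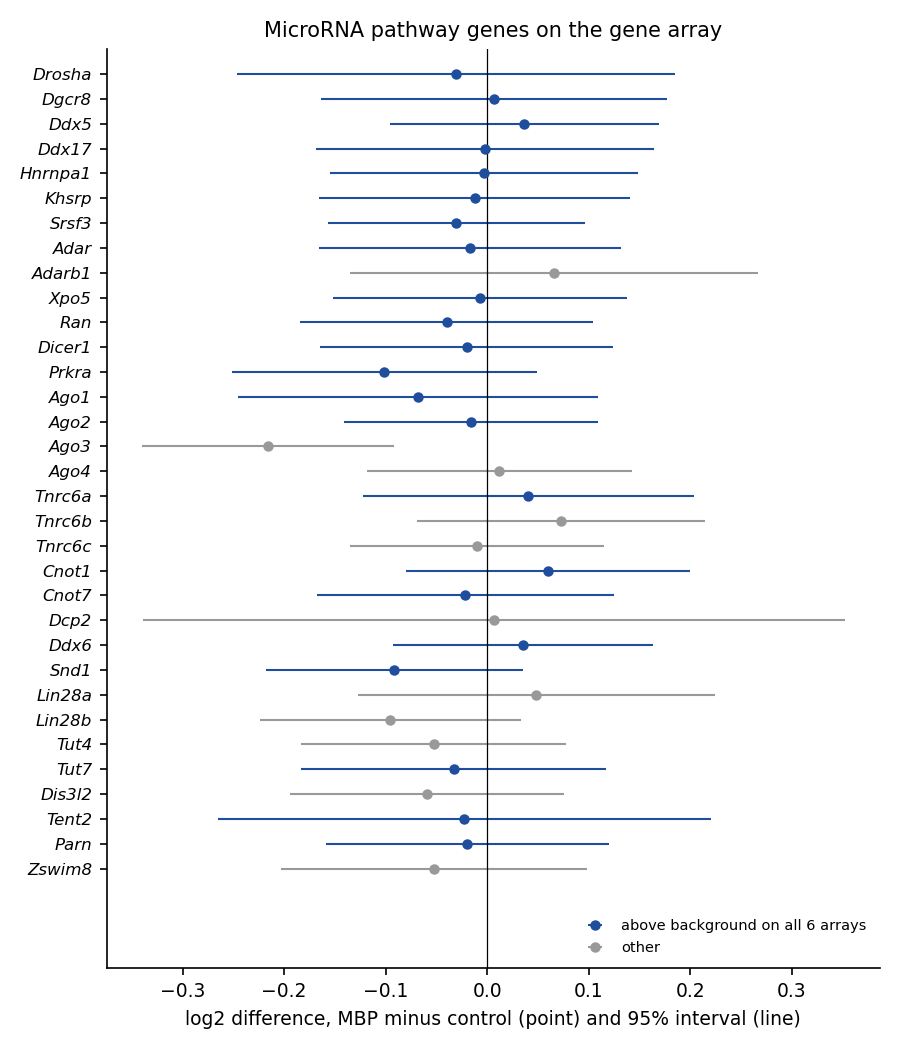
Log2 difference, MBP minus control, of the 33 measured microRNA pathway genes on the gene array, as points with 95% intervals from limma (3 samples per group). Blue genes were above background on all 6 arrays. Every interval of a blue gene includes 0 and stays within 0.27.

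Host genes were read as a second view of intronic microRNAs. Of the stem-loops, 88 lie in 70 annotated host genes, of which 52 were measured and 15 were above background on all arrays. Of these 15, 6 were higher and 9 lower with MBP (median -0.02), and 1 of the 52 had an unadjusted p below 0.05, against 4.59% of all gene array probe sets. For miR-423 the host Nsrp1, a splicing regulator, had means of 7.22 and 7.27 in control and MBP, while the stem-loop differed by -0.01. For miR-25 the host Mcm7, a helicase subunit of DNA replication, had means of 7.52 and 7.44, while the stem-loop differed by 0.08. For miR-361 the host Chm was above background on 2 arrays and differed by -0.05, beside -0.26 for the stem-loop.

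The gene array also holds probe sets for 284 stem-loops. Background was exceeded on all 6 arrays by 5 of them and on no array by 269. At an unadjusted p below 0.05 there were 14, 7 higher and 7 lower, against 4.59% of all gene array probe sets, and none passed adjustment. MiR-598 was among the 5, with 6.73 ± 0.08 in the controls and 6.70 ± 0.06 with MBP (SD, n = 3) and a difference of -0.03 (95% interval -0.15 to 0.10). On the microRNA array its stem-loop had means of 0.36 ± 0.04 and 0.76 ± 0.22 (SD, n = 3), a difference of 0.40 (95% interval 0.07 to 0.72). The 2 kinds of array were normalized apart, so only the differences can be set beside each other.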

How the data were processed

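On both platforms the deposited values are log2 signals, and their near-equal quartiles show that the authors had normalized each set of 6 arrays. MAS5 is named, per the submitters' processing notes, without a role or a version. From the deposited annotated gene array table only annotation columns (other) were read. Another 6 signal columns there carry names found in no label and were not used. Of 1277 microRNA probe sets, 59 controls were left out. Probe sets were fitted with limma 3.58.1 in R 4.3.3 (lmFit, eBayes) on the log2 values, with group and sample number as terms and Benjamini-Hochberg adjustment over all 1218, or over 27342 on the gene array. The code of the fit was tested on simulated data with known differences. Pairing follows the sample numbers in the labels. Deviations of same-numbered samples from their group means correlated at 0.332, 0.372 and 0.276, others at -0.263 to -0.043. Such deviations sum to 0 within a group, so positive values for the same numbers push the others below 0. Gene array background is the 95th percentile of 1153 intron controls. Named probe sets were those of smallest p per direction among all mature, bright mature and stem-loop probe sets, the highest means, and list members. For want of names, 4 mature identifiers are printed, and lists meant for mature probe sets were read on stem-loops, which was decided after seeing the files. The bright stem-loops, host genes and seed or cluster partners were also chosen after their values were seen. Members and lists were chosen with earlier results of these data known. Alternatives were the fit without the block, mature probe sets alone, filters on level, other normalizations and variance priors, and leaving out samples.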

Additional observations from a re-analysis of the deposited data

How the results depend on the processing

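The count of probe sets with an adjusted p below 0.05 between MBP and control was 0 in each setting run except 1: with no replicate block and without control replicate 1 it was 3, MIMAT0017904 among them (difference 1.74). Leaving out samples thus gave 0 to 3. Without the replicate block the unadjusted count was 46 in place of 58, and it was 32 of 728 for mature probe sets alone. Fits limited to means above log2 6 and above 4 gave 13 of 148 and 13 of 221. In the fit of all 1218, the mature band from log2 6 to 8 had 2 of 58. Brighter mature probe sets and stem-loops above 6 had 0 there, so the count depended on which probe sets entered the fit. Leaving out samples gave unadjusted counts of 34 to 72. For the difference between sample numbers, the adjusted count was 0, but 36 and 28 for means above 6 and above 4, 19 with an intensity trend and 2 with median centring, and the cause was not tested. The unadjusted count was 65 of 148 and 70 of 221 for means above 6 and above 4, in place of 126 of 1218. Of the 129 bright mature probe sets, 22 had such a p in the fit of all 1218, so the share also depended on the fit. The share of intervals excluding a 2-fold change ran from 82.9% to 99.3% over the settings run. The median of the bright mature probe sets ran from -0.10 to 0.02 when samples were left out, above 0 without MBP replicate 1. Without the replicate block 0 of the pathway genes had an unadjusted p below 0.05, in place of 1. Of 479 differences of 33 named probe sets over the alternatives, 22 changed sign, none with an adjusted p below 0.05. MiR-320 was -0.010 with median centring and miR-423 was 0.0060 with quantile normalization. When samples were left out, differences ran from -0.079 to 0.057 for miR-320, -0.14 to 0.0019 and -0.096 to 0.0085 for the probe sets of miR-125b-1, -0.12 to 0.15 for miR-423, -0.0021 to 0.15 for miR-25, -0.39 to 0.18 for miR-344a-1, -0.17 to 0.13 for miR-125a, -0.21 to 0.63 for miR-143, -0.24 to 0.13 for miR-145 and -0.38 to 0.076 for miR-450a. With no change of sign, they ran from 0.39 to 1.18 for MIMAT0017029, -1.31 to -0.69 for MIMAT0025057, -0.42 to -0.16 for miR-351, -0.41 to -0.074 for miR-361, -0.35 to -0.082 for miR-31a and -0.45 to -0.093 for miR-411. Under quantile normalization the medians of the 21 lists moved by less than the spread of their pair medians. List medians were not recomputed with samples left out. Signals near the bottom of the scale limit what dim probe sets can show.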
